A study of Homo sapiens with 6 samples.

Results

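The thymosins and the other proteins that handle monomeric actin were compared between C4-2B parental and C4-2B enzalutamide resistant cells, through the RNA levels of 10 genes out of the 58024 in the expression table. The 10 genes were chosen by name, and TMSB10 was put at their head because its RNA was seen to climb into the most abundant RNAs of the resistant cells. The difference in TMSB10 is therefore given as a description with no test, and tests are given for the other 9 genes. C4-2B is a human prostate cancer cell line derived from LNCaP, written C42-B in the labels. It was sequenced in 3 parental and 3 resistant libraries of total RNA, numbered 0 to 2 in each group. The resistant cells came from passage in enzalutamide, an androgen receptor antagonist, raised from 1 to 20 µM over 6 months, and were then kept in 5 µM. The parental cells were passaged over the same time with DMSO, the vehicle, at 1% per the labels, while the methods give a lower ceiling. The labels state that RNA was taken under 10 µM enzalutamide and name both kinds of cell, so whether the parental cells also met the drug at that step cannot be told. The resistant cells are the surviving fraction of a selection, kept as a pool, and nothing in the labels says that the 3 libraries of a group came from separate cultures or selections. The p values below thus set group differences against the spread between these libraries, which may be technical.

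Actin exists in cells as monomers and as filaments, and the proteins studied here set how the monomers are stored, charged with ATP and returned from filaments. The β-thymosins, small proteins encoded by TMSB10, TMSB4X, TMSB15A and TMSB15B, bind monomers and hold them back from polymerisation. The profilins (PFN1, PFN2) promote the exchange of ADP for ATP on the monomer and pass it to growing filament ends. Cofilin-1 (CFL1), cofilin-2 (CFL2) and destrin (DSTN) sever filaments and speed the loss of monomers from them, and CAP1 helps to free monomers from cofilin and recharge them.

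The coding sequences of the 4 thymosins are shown because they differ enough between TMSB10 and TMSB4X for reads to be told apart, and barely at all between TMSB15A and TMSB15B. They were read from GENCODE v44 transcripts on GRCh38, 5′ to 3′ from start to stop codon, and capitals mark bases that differ from the aligned TMSB10 base.
TMSB10: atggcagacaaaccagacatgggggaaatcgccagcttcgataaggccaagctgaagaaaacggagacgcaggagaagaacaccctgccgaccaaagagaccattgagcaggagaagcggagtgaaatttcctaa
TMSB4X: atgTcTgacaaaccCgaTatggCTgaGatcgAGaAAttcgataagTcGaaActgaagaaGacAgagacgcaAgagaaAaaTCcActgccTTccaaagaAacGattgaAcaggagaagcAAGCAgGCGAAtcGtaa
TMSB15A: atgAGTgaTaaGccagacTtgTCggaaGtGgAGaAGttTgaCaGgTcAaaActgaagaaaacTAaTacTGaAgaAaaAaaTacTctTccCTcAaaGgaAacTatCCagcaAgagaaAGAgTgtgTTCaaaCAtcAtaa
TMSB15B: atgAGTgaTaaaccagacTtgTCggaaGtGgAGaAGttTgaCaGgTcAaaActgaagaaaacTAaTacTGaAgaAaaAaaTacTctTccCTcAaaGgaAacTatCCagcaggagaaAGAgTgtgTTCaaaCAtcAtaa
The coding sequence of TMSB10 had 135 bases, of which TMSB4X matched 72.6% and differed at 37. TMSB15A and TMSB15B, with 138 bases each, differed from TMSB10 at 50 and 48 positions and shared 98.6% of their bases with each other. Among all 50-base windows of the transcripts, the length of a read, 10 of 412 in TMSB10 (2.43%) recurred in another gene, all in the processed pseudogene TMSB10P1. In TMSB4X this was 184 of 573 windows (32.1%), shared with BCAS4 and TMSB4X pseudogenes, and in TMSB15A it was 49 of 585 (8.38%), shared with TMSB15B. All 603 windows of TMSB15B recurred in TMSB15C, a gene of the later annotation, so reads cannot assign a level to TMSB15B alone. Of the other genes, PFN1 shared 172 of 758 windows (22.7%) with the pseudogene PFN1P1 and the overlapping gene ENO3, while PFN2 shared 0 of 1998. In CFL1, CFL2, DSTN and CAP1 the share was between 0.493% and 6.56%.

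Levels are given as FPKM, fragments scaled to transcript length and to the mapped reads of the library, so that they may be compared between genes. All 10 genes passed the filter on low values, 0.1 FPKM or more on average across the 6 libraries. The table holds no read counts. From the steps between low values the libraries were estimated to hold 13500000 to 20400000 reads, and at that depth TMSB10 stood for an estimated 1300 to 34000 reads per library, TMSB15A for 50 to 120, TMSB4X for 1.5 to 13 and TMSB15B for 2.8 to 9.3. The other 6 genes stood for an estimated 790 to 24000 reads. Correlations of log2 levels across genes were 0.911 to 0.929 between libraries of a group and 0.782 to 0.802 between groups, and no 2 libraries held identical values. The RMRP entries together held 147052 to 186461 FPKM in the parental and 90320 to 106879 in the resistant libraries, and RPPH1 had a value of 0 in each parental library against 84854 to 98449 FPKM in the resistant ones. These are short non-coding RNAs, and values this high weigh on any scaling to the summed FPKM of all genes. The protein-coding genes summed to 576388 to 619205 FPKM in the parental and 561264 to 602032 in the resistant libraries. The prostate luminal markers, 11 of 11 with a mean of at least 1 FPKM, summed to 4442 to 5157 FPKM in the parental and 1375 to 1478 FPKM in the resistant libraries. The 8 fibroblast markers summed to 8.10 to 12.0 and 8.41 to 15.0 FPKM. Of 9 leukocyte and 5 endothelial markers none reached a mean of 1 FPKM, with sums of at most 2.13 FPKM in any library, and PTPRC, the pan-leukocyte marker, was listed at 0 in 5 libraries and at 0.0531 FPKM in a resistant library. The part of the luminal markers in the results was not tested.

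TMSB10 measured 376, 326 and 373 FPKM in parental libraries 0, 1 and 2, and 7113, 8076 and 7772 FPKM in the resistant libraries. Every resistant library was thus far above every parental library, and the libraries of a group were close to each other. The means were 358 ± 27.7 FPKM (SD, n = 3) and 7653 ± 492 FPKM (SD, n = 3), a 21.4-fold difference, or 4.42 on the log2 scale (SE 0.09). Among protein-coding genes TMSB10 went from ranks 213, 227 and 213 in the parental libraries to the first rank in all 3 resistant libraries. Its share of the summed protein-coding FPKM was 0.0595% in the parental and 1.31% in the resistant cells. The next protein-coding gene of the resistant libraries, RPL37A, stood at 3780, 4340 and 3983 FPKM, below TMSB10 in each of them. Over all genes TMSB10 had rank 4 in every resistant library, behind RPPH1 and entries of RMRP.

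Of 14787 protein-coding genes tested, 456 had a larger log2 difference than TMSB10. The genes whose levels lay closest to TMSB10 over the 6 libraries, by Euclidean distance of log2(FPKM + 0.1), were RPS19 (distance 3.65), the cyclin D1 gene CCND1 (3.74), TRIM28 (3.76), ATP5J2 (3.95) and the γ-actin gene ACTG1 (4.01). All 5 were far below TMSB10 in the resistant cells, at means of 1759 to 2707 FPKM, and 2.37-fold to 6.42-fold above their parental means. Of 57 protein-coding genes with a resistant mean of at least 1000 FPKM, 2 were at least 10-fold above their parental mean. They were TMSB10 and the histone gene HIST1H4D, which went from 3.28 to 2890 FPKM.

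**Figure D1:**
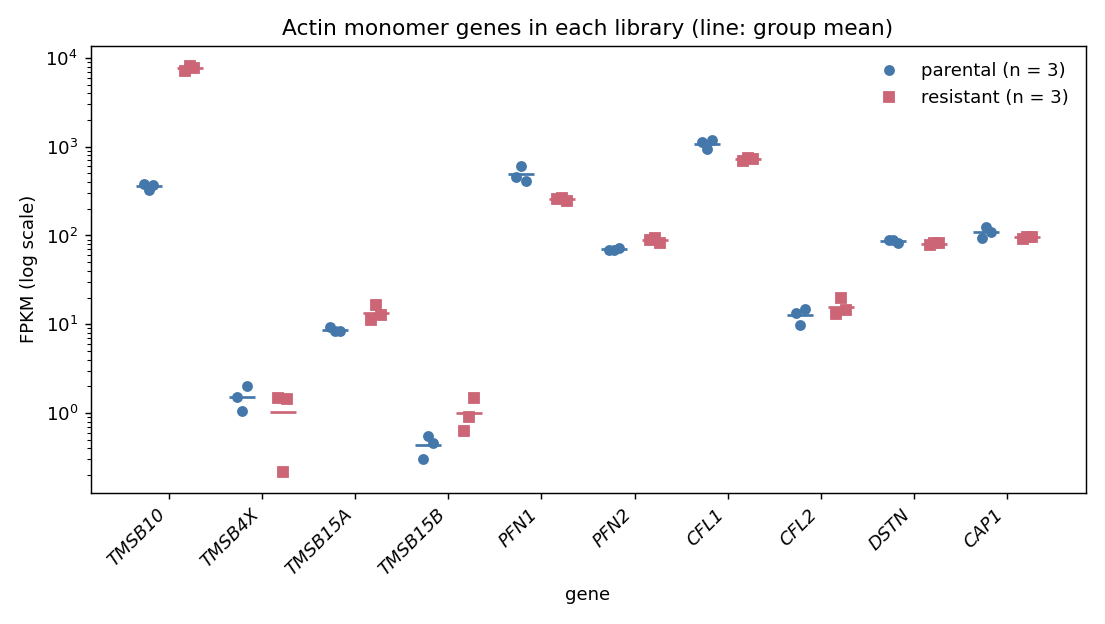
FPKM of the 10 genes on a log axis (y axis), side by side along the x axis, with a circle per parental library, a square per resistant library and a line at each group mean. TMSB10 sat at 326 to 376 FPKM in the parental and 7113 to 8076 FPKM in the resistant libraries, while TMSB4X, CFL2, DSTN and CAP1 overlapped between the groups.

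TMSB10 lies on chromosome 2 at chr2:84905656-84906671 on the plus strand (GRCh38, GENCODE v44), with a transcript of 461 bases in 3 exons. Its processed pseudogene TMSB10P1 lies on the same chromosome, at chr2:235882362-235882493 on the minus strand, and matches the coding sequence at 93.3% of 135 aligned columns. TMSB10P1 measured 76.3, 112 and 102 FPKM in the parental and 1192, 1545 and 1209 FPKM in the resistant libraries. It was higher in every resistant library, at 27.2% of the TMSB10 level in the parental and 17.1% in the resistant cells. The pseudogene has 132 bases, less than the 200 bases assumed for a fragment, so its FPKM rests on a length correction, and its reads may be taken for TMSB10 reads in the 36 of 412 windows (8.74%) that match it within 2 mismatches. Adding the pseudogene to TMSB10 gave a log2 difference of 4.30.

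The 6 protein-coding genes nearest to TMSB10, 3 on each side, were also all higher in the resistant cells, with limma adjusted p values (Benjamini-Hochberg) from 7.10e-05 to 0.0222, where 22.1% of all 24468 genes tested rose. They were looked at after their values had been seen. The ubiquitin ligase gene KCMF1, the next gene downstream, went from 27.1 ± 3.55 to 93.5 ± 4.83 FPKM (SD, n = 3), a log2 difference of 1.79. The succinyl-CoA ligase gene SUCLG1 went from 43.5 ± 1.40 to 80.9 ± 4.73 FPKM, and TGOLN2, a gene of the trans-Golgi network, from 26.1 ± 2.60 to 41.5 ± 3.55 FPKM. TRABD2A, which overlaps TMSB10 on the opposite strand, stood at 0.0116 FPKM in the parental and 0.850 FPKM in the resistant cells, and TCF7L1 had a value of 0 in each parental library against 0.779, 0.886 and 0.627 FPKM. The methods name a stranded library kit, but the strand setting used for counting is not given in the sources used here. Parental libraries 0, 1 and 2 held 0.0348, 0 and 0 FPKM of TRABD2A beside 376, 326 and 373 FPKM of TMSB10. Resistant libraries 0, 1 and 2 held 0.757, 0.752 and 1.04 FPKM of TRABD2A beside 7113, 8076 and 7772 FPKM of TMSB10. Whether reads of TMSB10 and TRABD2A over their overlap were separated was not tested. The part of the neighbourhood in the TMSB10 level was not tested. The 10 genes themselves are spread over 8 chromosomes, with TMSB4X, TMSB15A and TMSB15B on the X chromosome.

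The other thymosins stayed low, and none came near the level of TMSB10. TMSB4X, the major β-thymosin of many cell types, measured 1.52, 1.05 and 2.01 FPKM in the parental and 1.46, 0.214 and 1.43 FPKM in the resistant libraries. The groups overlapped, with resistant library 1 the lowest of all. The log2 difference of -0.80 (SE 0.68) did not pass the threshold (limma adjusted p = 0.384). It rested on single libraries, since it was -0.03 without resistant replicate 1 and -1.19 without resistant replicate 0 or -1.18 without resistant replicate 2. TMSB15A, a thymosin long studied in prostate cancer, measured 9.25, 8.41 and 8.49 FPKM in the parental and 11.1, 16.5 and 12.8 FPKM in the resistant libraries. All resistant libraries were above all parental ones, and TMSB15A rose by 0.60 on the log2 scale (SE 0.16, limma adjusted p = 0.0250). The call was lost without parental replicate 0, 1 or 2 or resistant replicate 2, with adjusted p values of 0.0516, 0.0642, 0.0680 and 0.0620. TMSB15B measured 0.301, 0.555 and 0.456 FPKM in the parental and 0.619, 0.895 and 1.46 FPKM in the resistant libraries. These groups did not overlap either, but the log2 difference of 0.98 (SE 0.42) did not pass (limma adjusted p = 0.105). TMSB10 made up 97.1% of the summed thymosin FPKM in the parental and 99.8% in the resistant cells.

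The main profilin fell while the minor one rose. PFN1 measured 458, 601 and 408 FPKM in parental cells against 255, 261 and 248 FPKM in resistant cells. All resistant libraries lay below all parental ones, and the parental libraries were more spread, with replicate 1 the highest. The means were 489 ± 100.1 and 255 ± 6.72 FPKM (SD, n = 3), a fall by 0.92 on the log2 scale (SE 0.14, limma adjusted p = 0.00256). PFN2, the profilin best known from neurons, measured 69.5, 68.2 and 71.6 FPKM in the parental and 88.5, 93.9 and 82.8 FPKM in the resistant libraries. Its groups did not overlap, and it rose by 0.34 on the log2 scale (SE 0.07, limma adjusted p = 0.00959). Without a variance trend in the model the adjusted p of PFN2 was 0.0633. PFN1 supplied 87.2% ± 2.40 of the 2 profilin RNAs in the parental and 74.2% ± 0.703 in the resistant cells (SD, n = 3), so that PFN1 remained the more abundant in every library. Within libraries the log2 ratio of PFN2 to PFN1 was 1.26 higher in resistant cells, with no overlap between groups. The exact two-sided permutation test gave p = 0.1, the smallest that 3 against 3 libraries allow (adjusted p = 0.133 over the 4 ratios computed).

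Of the filament-severing proteins, CFL1 fell and its relatives did not pass the test. CFL1, the cofilin of non-muscle cells, measured 1136, 935 and 1191 FPKM in parental cells against 695, 744 and 719 FPKM in resistant cells. The groups did not overlap, and CFL1 fell by 0.59 on the log2 scale (SE 0.10, limma adjusted p = 0.00415), from a mean of 1087 ± 135 to 719 ± 24.8 FPKM (SD, n = 3). CFL2, the cofilin typical of muscle, ranged from 9.89 to 14.8 FPKM in the parental and from 13.1 to 19.6 FPKM in the resistant libraries. These ranges overlapped, and the log2 difference was 0.30 (SE 0.21, limma adjusted p = 0.294), which was 0.14 without parental replicate 1 and 0.13 without resistant replicate 1. DSTN ranged from 82.9 to 88.4 FPKM in the parental and from 77.5 to 83.0 FPKM in the resistant libraries, with the groups meeting at their edges. Its log2 difference was -0.10 (SE 0.07, limma adjusted p = 0.259), and it turned to 0.038 after quantile normalization. CFL1 made up 91.6% ± 0.986 of the 3 RNAs in the parental and 88.2% ± 0.242 in the resistant cells (SD, n = 3). The log2 ratios of CFL2 to CFL1 and of DSTN to CFL1 were 0.89 and 0.49 higher in the resistant cells (exact permutation p = 0.1 and adjusted p = 0.133 for each).

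CAP1, which works with cofilin in monomer recycling, measured 93.2, 124 and 109 FPKM in the parental and 91.4, 97.3 and 96.5 FPKM in the resistant libraries. The groups overlapped, with the highest values in parental libraries 1 and 2. The log2 difference was -0.18 (SE 0.11, limma adjusted p = 0.227). It was -0.29 without parental replicate 0 (limma adjusted p = 0.0551), -0.08 without parental replicate 1, -0.09 under median-of-ratios scaling and -0.02 after quantile normalization. The log2 ratio of CAP1 to CFL1 was 0.40 higher in the resistant cells (exact permutation p = 0.3, adjusted p = 0.3).

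**Figure D2:**
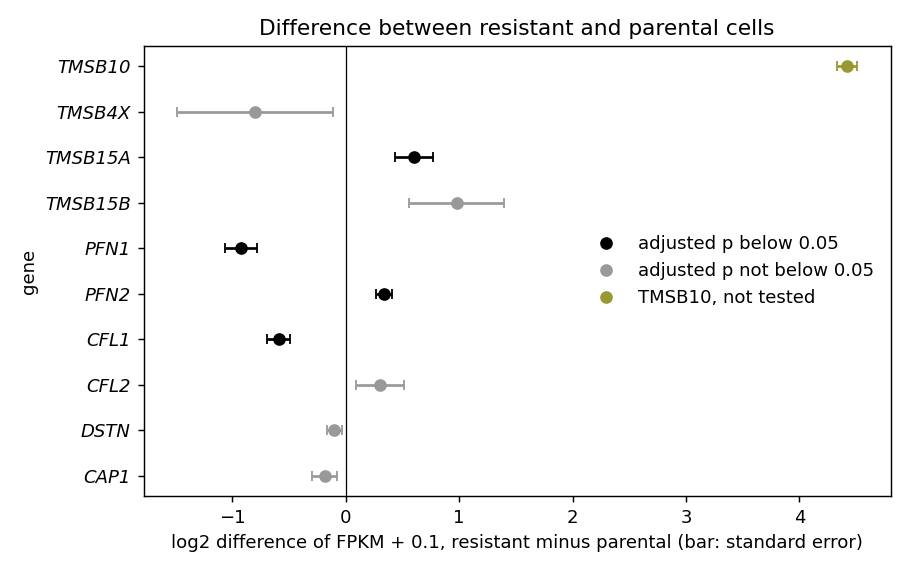
Log2 difference of FPKM + 0.1 between resistant and parental cells for each of the 10 genes (x axis), with bars for the standard error of the limma fit. TMSB10 stands at 4.42, not tested, against values between -0.92 (PFN1) and 0.98 (TMSB15B) for the other 9 genes.

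Of the 9 genes tested, 2 rose (TMSB15A, PFN2), 2 fell (PFN1, CFL1) and 5 did not pass the threshold. Over all 24468 genes tested, 22.1% rose and 22.3% fell, 44.4% together, so the share among the 9 genes was near the background. The groups did not overlap in 5 of the 9 genes, against 54.8% of all genes. The median log2 difference of the 9 genes was -0.10, against -0.05 over all genes tested.

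In the parental cells the order of levels ran from CFL1 through PFN1, TMSB10, CAP1, DSTN, PFN2, CFL2, TMSB15A and TMSB4X to TMSB15B, and no neighbours in this order overlapped over the 3 libraries. In the resistant cells TMSB10 came first, followed by CFL1, PFN1, CAP1, PFN2, DSTN, CFL2, TMSB15A, TMSB4X and TMSB15B. Here CAP1 and PFN2, PFN2 and DSTN, CFL2 and TMSB15A, and TMSB4X and TMSB15B overlapped. The 10 genes summed to 2223 ± 52.9 FPKM in the parental and 8923 ± 531 FPKM in the resistant cells (SD, n = 3). Without TMSB10 the sum was 1865 ± 26.2 FPKM in the parental and 1269 ± 42.3 FPKM in the resistant cells, lower in every resistant library than in any parental one. TMSB10 thus made up 16.1% of the summed RNA of these genes in the parental and 85.8% in the resistant cells.

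**Figure D3:**
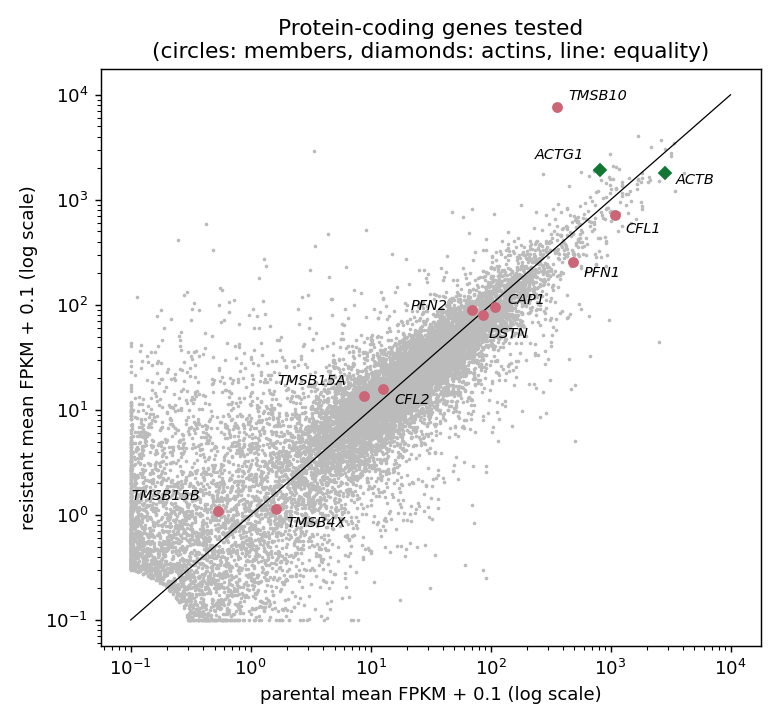
Mean FPKM + 0.1 of the protein-coding genes tested in parental (x axis) and resistant cells (y axis), both on log scales, with a grey point per gene, circles for the 10 genes, diamonds for ACTB and ACTG1 and a line at equality. TMSB10 lies highest of all points at a mean of 7653 FPKM, whereas CFL1 and PFN1 lie below the line.

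The actins themselves, the partners of all these proteins, changed in composition. ACTB, encoding β-actin, measured 2892, 2728 and 2936 FPKM in the parental and 1854, 1784 and 1730 FPKM in the resistant libraries. ACTG1, encoding γ-actin, measured 852, 773 and 808 FPKM in the parental and 1796, 2046 and 1932 FPKM in the resistant libraries. Neither gene overlapped between the groups, and the directions were opposite. ACTB fell by 0.67 on the log2 scale (SE 0.06, limma adjusted p = 3.70e-04), and ACTG1 rose by 1.25 (SE 0.07, limma adjusted p = 6.13e-05). Only 10 of 1763 windows of 50 bases in ACTB recurred in ACTG1 (0.567%), so most windows tell these genes apart. Windows that the actins share with other genes or pseudogenes were not counted. The share of ACTG1 in the pair was 22.1% ± 0.597 in the parental and 51.8% ± 2.26 in the resistant cells (SD, n = 3). Their sum, looked at after the values had been seen, was 3501 to 3745 FPKM in the parental and 3650 to 3829 FPKM in the resistant libraries, which overlapped.

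Set against this actin sum, TMSB10 RNA stood at a ratio of 0.0977 in the parental and 2.06 in the resistant cells. The other 9 genes together stood at 0.509 in the parental and 0.342 in the resistant cells. The ratio of TMSB10 to PFN1 was 0.760 and 30.1 in parental and resistant cells, and that of TMSB10 to CFL1 was 0.331 and 10.6. These ratios are of RNA levels per length within a library, and protein was not measured in these files. Those that contain TMSB10 are given with no test because that gene was chosen for its difference.

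**Figure D4:**
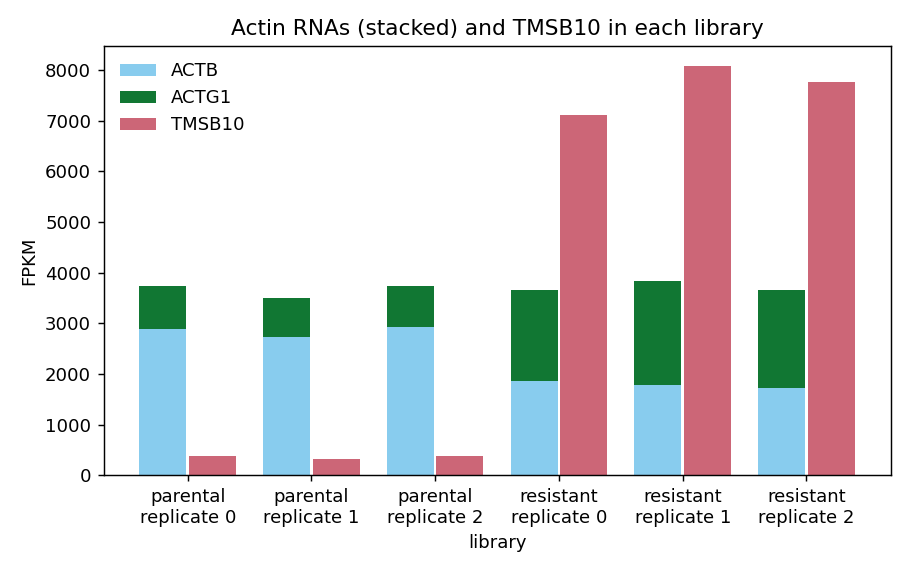
FPKM of ACTB and ACTG1, stacked, beside TMSB10 in each of the 6 libraries, on a linear axis from 0. The actin stacks stay between 3501 and 3829 FPKM, while the TMSB10 bars go from at most 376 FPKM in parental to at least 7113 FPKM in resistant libraries.

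The wider actin machinery was described with 103 genes in 7 lists, which leave out the 10 genes above. Of the 100 genes tested, 29 rose, 37 fell and 34 did not pass, so 66% were called against 44.4% of all genes, and the median log2 difference was -0.24 against -0.05. The background of 44.4% includes many low genes. With the filter raised to a mean of 1 FPKM, a larger share of all genes passed, 9021 of 16382. Of these 4214 rose, and the median over all genes kept was -0.09. Of the listed genes 28 then rose and 39 fell. The shares given for each list below stand against 22.1% of all genes that rose and 22.3% that fell. Both background shares are higher under the raised filter, which most listed genes pass, so an excess over them can be overstated. CNN1, ACTA1 and ACTC1, typical of muscle, did not pass the filter on low values. The lists were chosen with results of these data known, and their counts are given as descriptions. FPKM values below are means ± SD of 3 libraries, and all p values are limma adjusted p values.

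Of the 11 other monomer-binding or recycling proteins, 3 rose (27.3%) and 5 fell (45.5%). COTL1, the coactosin-like protein, fell from 17.1, 14.5 and 21.4 FPKM to 2.10, 1.66 and 1.89 FPKM, a log2 difference of -3.15 (adjusted p = 6.23e-05). CAP2, the paralog of CAP1, fell from 13.9 ± 0.638 to 2.59 ± 0.524 FPKM (adjusted p = 1.38e-04), and TWF2, a twinfilin that binds monomers and filament ends, from 42.2 ± 5.70 to 19.8 ± 2.15 FPKM (adjusted p = 9.71e-04). MTSS1L and WDR1, a partner of cofilin in disassembly, were the other genes that fell. MTSS1, WIPF1 and WIPF3 rose, of which WIPF3 had a value of 0 in each parental library and 1.33, 0.852 and 1.05 FPKM in the resistant ones.

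Of 13 genes that control cofilin by phosphorylation, 3 rose and 3 fell, so that 46.2% were called, near the 44.4% of all genes. PAK1, a kinase upstream of LIM kinase, rose from 1.61 ± 1.04 to 22.3 ± 0.955 FPKM (adjusted p = 5.50e-04), whereas PAK4 fell from 132 ± 11.4 to 60.0 ± 4.06 FPKM (adjusted p = 1.89e-04). The LIM kinases, which inactivate cofilin, parted, since LIMK2 rose from 35.4 to 59.0 FPKM (adjusted p = 8.72e-04) and LIMK1 fell from 29.4 to 17.7 FPKM (adjusted p = 0.00125). They were named after their values had been seen. SSH2, a phosphatase that reactivates cofilin, fell from a range of 21.5 to 26.5 FPKM to 9.05 to 11.7 FPKM (adjusted p = 8.66e-04).

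Of 30 nucleators and their activators, 10 rose (33.3%) and 9 fell (30%). FMNL1, a formin, rose from 0.903 ± 0.166 to 11.1 ± 0.602 FPKM (adjusted p = 4.32e-05), while another formin, INF2, fell from 29.4 ± 1.73 to 12.9 ± 1.02 FPKM (adjusted p = 2.30e-04). WASF3, an activator of the Arp2/3 complex, fell from 30.8 ± 3.75 to 12.1 ± 0.593 FPKM (adjusted p = 2.75e-04).

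Of 14 capping, severing and filament-end proteins, 5 rose and 5 fell (35.7% each). VIL1, encoding villin, a bundling and severing protein of intestinal microvilli, rose from 0.264, 0.167 and 0.376 FPKM to 84.3, 93.9 and 87.8 FPKM, by 7.95 on the log2 scale (SE 0.23, adjusted p = 5.57e-06). TMOD2, which caps pointed ends, rose from 2.29 ± 0.206 to 13.3 ± 3.01 FPKM (adjusted p = 2.06e-04). EVL, which protects growing ends from capping, fell from 40.0 ± 3.98 to 13.4 ± 2.53 FPKM (adjusted p = 5.12e-04).

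Of 16 bundling and filament-stabilising proteins, 4 rose (25%) and 6 fell (37.5%). LCP1, the plastin of leukocytes, which many tumour cell lines also express, fell from 60.3 ± 2.48 to 6.68 ± 0.205 FPKM (adjusted p = 4.60e-06), and PLS3, the plastin of most solid tissues, rose from 35.7 ± 4.82 to 86.5 ± 6.02 FPKM (adjusted p = 3.29e-04). The leukocyte markers, at most 0.970 FPKM for any gene in any library, were near 0. FLNA, a filamin that links filaments into networks, fell from 117 ± 4.71 to 52.2 ± 6.68 FPKM (adjusted p = 3.19e-04).

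Of the 13 genes of the MRTF and SRF pathway, in which the monomer pool restrains the coactivators MKL1 and MKL2, 12 were tested. The list holds SRF, these coactivators and known targets other than the actins. The actins form a list of their own, in which 2 of 4 tested genes rose and 1 fell. Of the 12 genes tested here 2 rose (16.7%, against 22.1% of all genes) and 8 fell (66.7%, against 22.3%). Their median log2 difference was -0.70, against -0.05 over all genes. VCL, encoding vinculin, fell from 84.6 ± 14.5 to 32.1 ± 1.65 FPKM (adjusted p = 3.31e-04), and MYH9, encoding non-muscle myosin heavy chain, from 331 ± 27.3 to 155 ± 17.7 FPKM (adjusted p = 4.06e-04). CNN2, CYR61, TAGLN, ZYX, MKL1 and MKL2 also fell. TAGLN2, a transgelin, rose from 132 ± 8.56 to 286 ± 17.8 FPKM (adjusted p = 1.14e-04). CTGF was the other gene that rose, from 0.0583 ± 0.0801 to 2.98 ± 0.825 FPKM (adjusted p = 6.13e-04). Its log2 difference of 4.36 was the largest of this list in either direction, from a parental level near 0. SRF itself stood at 15.3 to 17.3 FPKM in the parental and 13.0 to 14.3 FPKM in the resistant libraries and did not pass the threshold (log2 difference -0.23, adjusted p = 0.113).

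**Figure D5:**
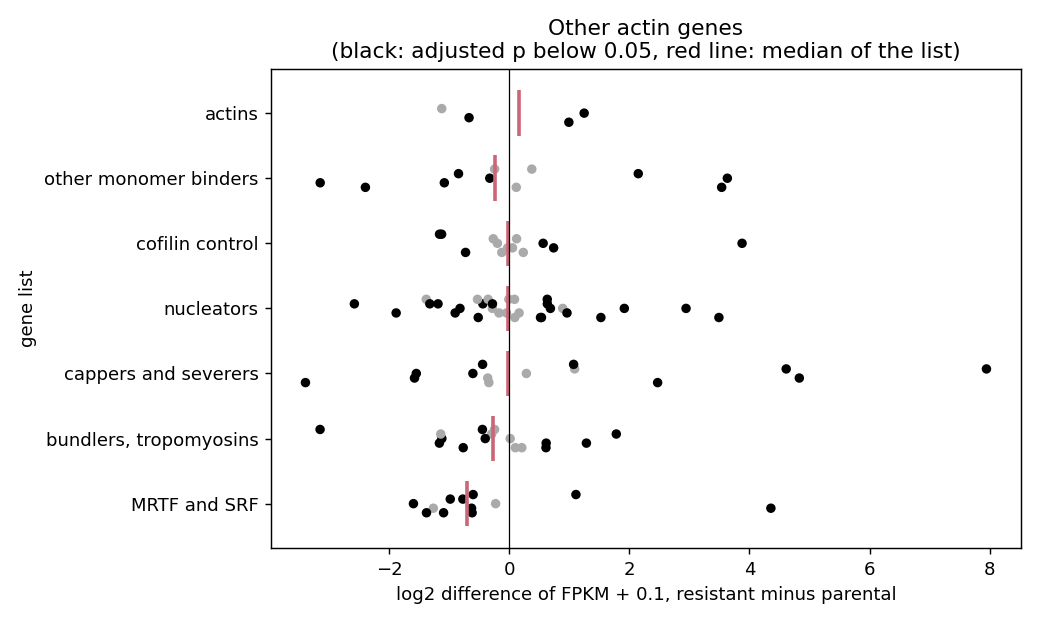
Log2 difference between resistant and parental cells for the tested genes of each of the 7 actin lists, with a point per gene, black where the adjusted p was below 0.05, and a red line at the median of the list. The medians lie between -0.70 for the MRTF and SRF genes and 0.16 for the actins.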

How the data were processed

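RNA-Seq of 3 C4-2B parental and 3 C4-2B enzalutamide resistant libraries was analysed. The authors trimmed single-end reads, aligned them with STAR to GRCh38 and deposited FPKM values made with Cufflinks on a GENCODE annotation. The labels list FastQC 0.10.1, Trimmomatic 0.27 and a mouse build instead, while the gene identifiers are human. The depth is not given, so the estimated depths and read numbers assume 200-base fragments, and no counting interval was computed. Of 58024 identifiers, 56980 matched GENCODE v44, which gave gene types, positions and transcripts.

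The 2 groups were tested against each other in limma 3.58.1 (R 4.3.3). Values entered as log2(FPKM + 0.1), and genes averaging under 0.1 FPKM were dropped, which left 24468. A variance trend was used, with Benjamini-Hochberg adjustment over all these genes and a threshold of 0.05. All p values are two-sided, and log2 differences understate changes of low genes. The fit was tested on simulated data. Ratios between genes were compared by exact permutation. Python 3.11.15, pandas 2.3.3 and matplotlib 3.10.9 were used.

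The genes and lists were chosen with earlier results of these data known. The text names the 10 genes, ACTB and ACTG1, RMRP and RPPH1, from each list the 3 genes of at least 1 FPKM on average that had the smallest adjusted p, and the 5 genes closest to TMSB10. Of these ACTA2 is not described further. Other genes are named for a count, as neighbours or to complete a list. Alternatives were other pseudocounts, filters and scalings, no variance trend, a replicate block and leaving out each library.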

Additional observations from a re-analysis of the deposited data

How the results depend on the processing

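The difference in TMSB10 lay between 4.14 (quantile normalization) and 4.52 (median-of-ratios scaling) on the log2 scale over the alternatives, and between 4.35 and 4.47 when a library was left out. PFN1 and CFL1 stayed lower and past the threshold under every alternative run, at -1.04 to -0.76 and -0.69 to -0.49, with adjusted p values of at most 0.0159 and 0.0231. The number of tested genes that rose went from 2 to 1 without a variance trend (PFN2 lost, adjusted p = 0.0633) and to 1 with the replicate block (TMSB15A lost, adjusted p = 0.0575), and was 1 to 2 with a library left out. The number that fell was 2 throughout. DSTN turned from -0.10 to 0.038 under quantile normalization, and neither value passed the threshold. The replicate numbers gave no sign of pairing. Deviations of same-numbered libraries correlated at 0.008, 0.017 and -0.003 across genes, and those of different-numbered libraries at -0.026 to 0.020. How the libraries were handled cannot be told from these values. Under the replicate block 9463 genes passed, against 10868 without it, and of the actin lists 28 rose and 36 fell. With a library left out 26 to 28 of these rose and 28 to 35 fell. The log2 ratios ranged from 1.09 to 1.40 (PFN2 to PFN1), 0.75 to 0.99 (CFL2 to CFL1), 0.39 to 0.61 (DSTN to CFL1) and 0.26 to 0.61 (CAP1 to CFL1) over left-out libraries. Median-of-ratios scaling moved the median of all genes from -0.05 to 0.04 and the share of called genes that rose from 49.7% to 55.0%. The few reads estimated for TMSB4X and TMSB15B were not turned into counting intervals. Adding TMSB10P1 to TMSB10 was chosen after the data were seen.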
